A study of Mus musculus with 346 samples.

Results

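At puberty the growing mammary ducts end in terminal endbuds, and the outer layer of an endbud is made of cap cells. Cap cells lie against the basement membrane, share keratins and other genes with basal (myoepithelial) cells, and are known as the cells that feed the basal layer of the elongating duct. The 60 cells described here are pubertal mammary cells chosen by 2 measured criteria: enough coverage, meaning at least 100000 reads and 1500 detected genes once mitochondrial, ribosomal protein and unnamed genes were dropped, and a Krt14 count above 0. Krt14 (chr11:100203162-100207510, in GRCm38.p6 as all positions here) encodes a keratin of basal epithelial cells. They are 60 of the 119 pubertal cells past the coverage filter, of 136 pubertal cells and 346 cells in the series. Within them, a set of 5 genes (Nrg1, Moxd1, Snai2, Bmp7 and Wif1) splits the cells: those with a count above 0 for 3 or more are called cap-gene cells (36 cells) and cells that detected 2 or fewer are called other cells (24 cells). The name cap-gene refers to these genes only, since the place of a cell in the gland was not measured.

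The mice were of the strain FVB/NJ, untreated and with no altered allele named in the labels, and their mammary cells were sorted as total epithelium and caught singly on a Fluidigm C1 chip. Pubertal mice were 4.7 to 4.9 weeks old, and cells from mice of 2 weeks (pre-puberty) and 10 weeks (adult) are used only where the stages are set side by side. Cells of several mice were pooled before each sort, per the study's methods. The labels name neither a mouse nor a chip for any cell, so each stage counts as 1 sample, cells are not replicates, and no statistical test was made. Levels are given as counts per 1000000 reads (CPM), and a level over a group is its summed reads over its summed depth with an exact Poisson 95% interval. Shares of cells have exact (Clopper-Pearson) 95% intervals. The intervals cover counting error only, since copies made by amplification are counted separately and mice cannot be told apart. The 60 cells held 127221 to 1180517 reads and 1836 to 5643 detected genes. The median was 590152 reads in the cap-gene cells and 543466 in the other cells. After each cell was thinned at random to 100000 reads, the median was 2839 genes in cap-gene cells and 2490.5 in other cells, so the cap-gene cells also detected more genes at equal depth.

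The label basal held for part of these cells only. With 8 or more of 15 basal marker genes in the thinned cell as the gate, 25 of 36 cap-gene cells passed (69.4%, 95% interval 51.9 to 83.7) and 8 of 24 other cells (33.3%, 15.6 to 55.3). More than 5 of 10 luminal marker genes were found in 22 of the 36 cap-gene cells and 18 of the 24 other cells, among them 19 of the 33 cells past the gate. The Krt14 criterion was met by 10 reads or fewer in 13 cap-gene and 15 other cells. Of those, 9 cap-gene and 12 other cells held more than 5 luminal genes, and 4 cap-gene and 2 other cells held 3 or fewer. What part the cells with both sets of markers have in the results below was not tested. The set is therefore called Krt14-positive pubertal cells, and the gated cells are treated separately at the end.

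**Figure D1:**
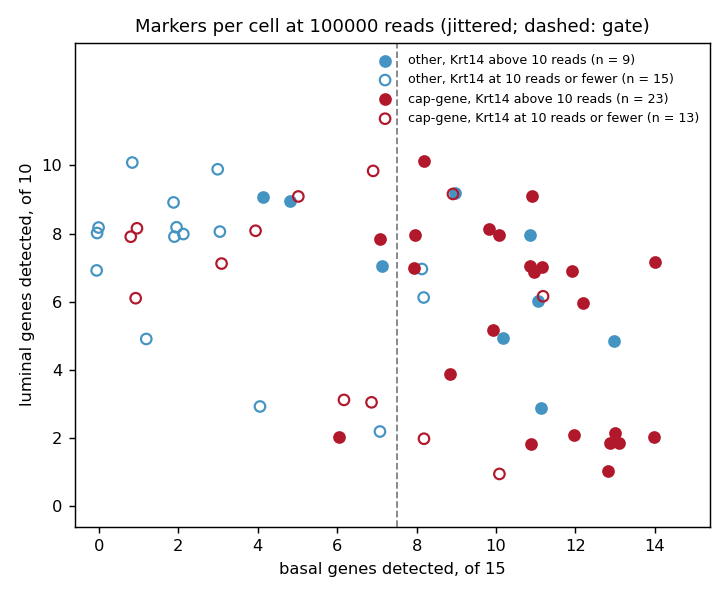
Number of basal marker genes (of 15, x axis) and luminal marker genes (of 10, y axis) detected per cell at 100000 reads, one point per cell with a small random shift, red for cap-gene and blue for other cells. Open circles are cells with 10 Krt14 reads or fewer (13 cap-gene, 15 other), and the dashed line is the gate of 8 basal genes, which 25 cap-gene and 8 other cells passed.

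Among the 5 genes that chose the groups, Moxd1 and Nrg1 were found in nearly every cell, so that Snai2, Wif1 and Bmp7 decided the split. Both Moxd1 and Nrg1 were detected in 52 of the 60 cells, including 17 of the 24 other cells. Every one of the 36 cap-gene cells held a read of Snai2, Wif1 or Bmp7, and 0 of the 24 other cells did. In these cells the rule was thus the same as asking for any read of these 3 genes. Of the cap-gene cells, 15 detected 1 of the 3 genes (Snai2 in 10, Wif1 in 4 and Bmp7 in 1), 16 detected 2 and 5 detected all 3. In 9 cap-gene cells none of the 3 genes reached more than 3 reads. The values that follow describe what the rule used, and are no finding.

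Snai2 (Slug, chr16:14705852-14709395) encodes a zinc finger repressor that binds E-box sequences and is known from epithelial-mesenchymal transition and from basal progenitor cells. It was detected in 28 of 36 cap-gene cells (77.8%, 60.8 to 89.9). Its cap-gene cells ranged from 0 to 1333 CPM with a median of 11.7, and 18 of them reached 10 CPM. The group level was 175 CPM (95% interval 169.8 to 181.0), against no read in the other cells, in which 3 reads over the group, the limit taken here for a count of 0, would be 0.236 CPM. Most cells with Snai2 thus held little of it, while a few held much: cells 119, 136, 49, 63 and 111 held 420.3 CPM or more.

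Moxd1 (chr10:24223517-24302783) encodes a copper-dependent monooxygenase-like protein of the endoplasmic reticulum. It stood at 905 CPM (892 to 917) in the cap-gene cells, which ranged from 1.46 to 4399 with a median of 186. In the other cells the level was 250.03 CPM (241 to 259), with cells from 0 to 3367 and a median of 20.5. The ranges overlapped almost wholly. Nrg1 (chr8:31807452-32891609) encodes neuregulin, a ligand of the receptors ERBB3 and ERBB4. Its level was 1435 CPM (1419 to 1451) in the cap-gene cells, with a median cell at 669 and the highest, cell 45, at 12370.4. In the other cells it was 573 CPM (560.0 to 586), with a median cell at 8.75 and the highest at 4728. At 10 CPM or more, Nrg1 was found in 29 cap-gene and 10 other cells and Moxd1 in 28 and 13.

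Wif1 (chr10:121034004-121100642) encodes a secreted protein that binds and blocks Wnt ligands. It was detected in 21 of 36 cap-gene cells (58.3%, 40.8 to 74.5), with a median of 2.01 CPM and the highest cell, 110, at 883. Bmp7 (chr2:172868012-172940321), a ligand of the BMP family, was found in 13 cap-gene cells (36.1%, 20.8 to 53.8), and cell 53, the highest at 421 CPM, held 51.0% of its reads. At the group level Wif1 stood at 84.3 CPM (80.4 to 88.2) and Bmp7 at 26.4 (24.3 to 28.7). Krt14 itself ranged from 1.76 to 6624 CPM in the cap-gene cells (median 191) and from 1.24 to 2038 in the other cells (median 5.34).

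**Figure D2:**
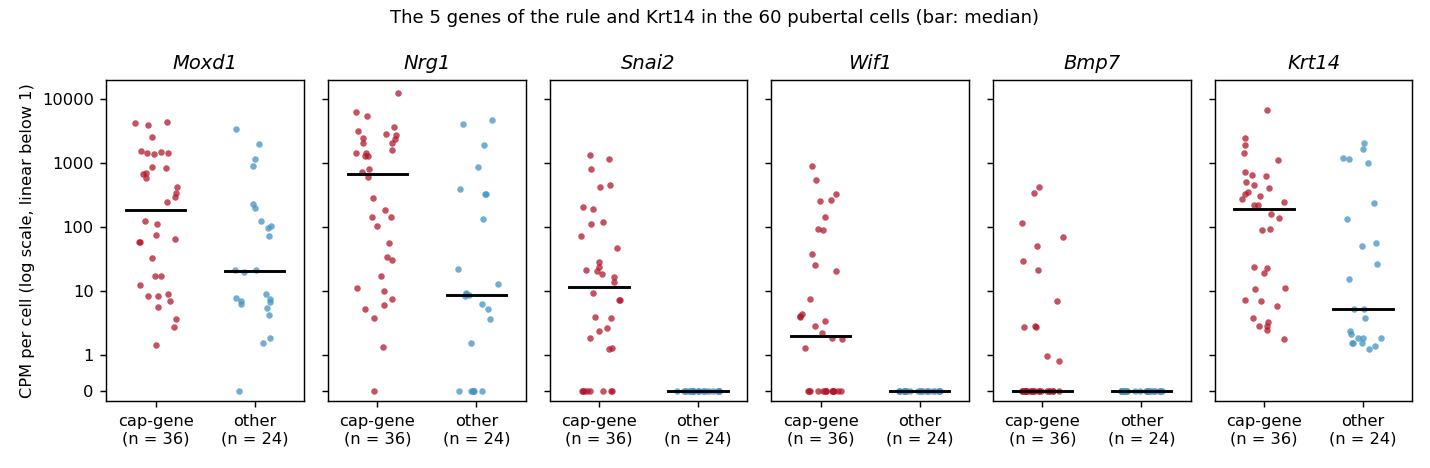
CPM per cell (log axis, linear below 1) of the 5 genes of the rule and of Krt14 in the 36 cap-gene and 24 other cells, one point per cell, with the median as a bar. Snai2, Wif1 and Bmp7 are at 0 in all 24 other cells, while Moxd1, Nrg1 and Krt14 overlap between the groups.

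All 21 cells with Wif1 also detected both Moxd1 and Nrg1, as did 52 of all 60 cells. Snai2 was found with Wif1 in 14 cells and with Bmp7 in 9, and Wif1 with Bmp7 in 8. At 10 CPM or more, Snai2 and Wif1 were together in 8 cells, Wif1 and Bmp7 in 3 and Snai2 and Bmp7 in 1, while Snai2 reached that level in 18 cells and Bmp7 in 7. Cell 53, with the most Bmp7, had 7.21 CPM of Snai2, and cell 119, with the most Snai2, had the 5 genes but only 4 Krt14 reads. Cells 49, 131 and 28 were alike in holding few Krt14 reads, with 795, 204 and 189 CPM of Snai2 and 3, 5 and 2 Krt14 reads.

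Since Snai2 protein recognises the E-box CAGGTG, the upstream sequences of the genes detected beside it are shown where RefSeq windows (GRCm38.p6) were given, which was so for Moxd1 and Wif1. These are the 250 bases before each gene start, on the plus strand, at chr10:24223267-24223516 for Moxd1 and chr10:121033754-121034003 for Wif1. Capitals mark CAGGTG or its reverse complement CACCTG, which are the same motif read on either strand.
Moxd1: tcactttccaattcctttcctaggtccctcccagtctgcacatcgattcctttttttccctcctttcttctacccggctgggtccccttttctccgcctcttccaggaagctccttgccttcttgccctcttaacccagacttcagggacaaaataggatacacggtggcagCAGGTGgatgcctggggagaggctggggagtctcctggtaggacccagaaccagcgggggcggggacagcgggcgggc
Wif1: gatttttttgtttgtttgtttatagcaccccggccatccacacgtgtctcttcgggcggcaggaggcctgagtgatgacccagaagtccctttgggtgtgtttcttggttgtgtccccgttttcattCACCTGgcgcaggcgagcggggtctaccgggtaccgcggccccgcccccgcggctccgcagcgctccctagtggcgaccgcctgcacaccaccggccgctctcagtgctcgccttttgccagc
The motif began 78 bases before the start of Moxd1 and 123 bases before that of Wif1. It occurred in 17.2% of all 32851 windows of this length, and a match in these letters is a description of the sequence only.

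At the edge of the rule, 16 cells detected 3 of the 5 genes and 17 detected 2. Just inside, the median cell had 25.0 CPM of Moxd1, 45.7 of Nrg1 and 3.12 of Snai2. Just outside it had 72.6 CPM of Moxd1, 22.0 of Nrg1 and 0 of Snai2. Krt14 had a median of 56.7 CPM inside and 5.35 outside. The number of basal genes detected per cell had medians of 2 in cells with 1 gene of the 5, 4 with 2, 9 with 3, 9 with 4 and 11 with 5. The number of luminal genes had medians of 8, 7, 7.5, 5 and 2 in the same order. The 5 cells that held all 5 genes all passed the basal gate.

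Across the stages, 3 or more of the 5 genes were found in 60.0% of Krt14-positive cells at puberty (36 of 60, 95% interval 46.5 to 72.4), in 17.5% at pre-puberty (7 of 40, 7.34 to 32.8) and in 16.7% in the adult (6 of 36, 6.37 to 32.8). The pubertal cells were more deeply sequenced, with a median of 553103 reads against 329362 and 358286. With every cell thinned to 100000 reads the shares were 50.0% (21 of 42, 34.2 to 65.8), 18.8% (6 of 32, 7.21 to 36.4) and 16.1% (5 of 31, 5.45 to 33.7). With a gene called detected only at 10 CPM or more, they were 33.3% (20 of 60, 21.7 to 46.7), 10.0% (4 of 40, 2.79 to 23.7) and 13.9% (5 of 36, 4.67 to 29.5). Puberty stood above the other stages each time, with an interval that overlaps that of pre-puberty after thinning and those of both other stages at 10 CPM, while the size of the gap depended on how few reads count as detection. With 1 sample a stage, stage cannot be told apart from mouse, sort or chip. The Krt14-positive cells were 60 of 119 cells past the coverage filter at puberty, 40 of 116 at pre-puberty and 36 of 43 in the adult. What part an unlike mix of cells has in the shares was not tested.

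**Figure D3:**
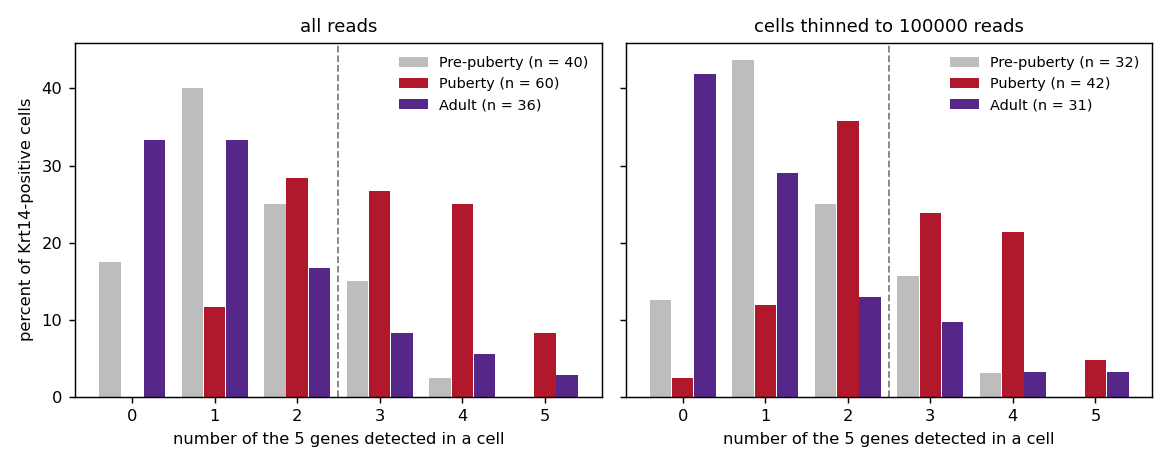
Percent of Krt14-positive cells (y axis) by the number of the 5 genes detected in them (x axis) at pre-puberty, puberty and in the adult, with all reads (left) and after thinning to 100000 reads (right). To the right of the dashed line are the cells with 3 or more genes, 60.0% at puberty against 17.5% and 16.7% at the other stages with all reads.

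The study singled these genes out in this series as found in more pubertal cells, so the stage shares are a description of that choice and no independent evidence. The levels of the 5 genes differed unequally between the stages. Nrg1 stood at 1117 CPM (1106 to 1128) in the pubertal Krt14-positive cells, at 54.8 (51.1 to 58.8) before puberty and at 220.2 (213 to 228) in the adult, and Moxd1 at 663 (654 to 672), 252 (244 to 261) and 296 (288 to 305). Without the top cell of each stage these levels were 952, 29.3 and 127 CPM for Nrg1 and 547, 189 and 152.4 for Moxd1. Wif1 differed less, with 53.2 CPM (50.7 to 55.6), 40.0 (36.8 to 43.4) and 48.7 (45.3 to 52.2), and without the top cells 39.5, 15.39 and 30.9. Snai2 stood at 111 CPM (107 to 114) at puberty and 108 (103 to 113) before it, or 85.5 and 56.8 without the top cells, and at 17.5 in the adult, where 1 cell held 95.3% of its reads. Bmp7 had 16.7 CPM at puberty, 1.598 before it, where 1 cell held 95.7%, and 7.56 in the adult.

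The cap-gene cells were next compared with the other Krt14-positive pubertal cells over the genes outside the rule. A gene is called higher or lower when its summed levels differ at least 2-fold, after 5 CPM is added to both, with all cells and also without the cell that holds most of it in the higher group. Of 8962 genes at 10 CPM or more in either group, 1396 were higher in the cap-gene cells (15.6%) and 456 were lower (5.09%), and the median log2 ratio over all of them was 0.20. Leaving out the top cell weighs more on the smaller group, and with all cells only the counts were 2798 and 1973. With the 5 genes called detected only at 10 CPM or more (20 against 40 cells), the split turned to 654 higher and 1271 lower. Counts of a list below are to be read against these shares, and the ratios are log2 ratios of cap-gene over other cells with 5 CPM added, which understates the change of low genes. The comparison has no replicate, and the calls describe these cells.

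The study listed 12 other genes beside these 5 for its basal cell cluster VI and for no other cluster. Only these 12 are called its cluster VI genes here. The rest of that cluster's list, among them Acta2, Krt5 and Krt17, was listed for other clusters too. The 12 genes were chosen by the study on overlapping cells, so their direction is not independent evidence. Of the 12 genes 9 were higher in the cap-gene cells and 0 lower, with a median ratio of 2.20. Serpinb11, a serine protease inhibitor family member, had the largest ratio, 6.20. It was at 0 in 19 of the cap-gene cells and reached 3132 CPM, the group level was 566 CPM (556 to 576), and in the other cells it was 2.76 (1.92 to 3.84) with the highest cell at 70.2. Vcan, the matrix proteoglycan versican, ranged from 0 to 4621 CPM in the cap-gene cells with a median of 465, and from 0 to 2177 with a median of 5.45 in the other cells, a ratio of 2.22. Vcan thus overlapped between the groups and differed in the middle of the range, while Serpinb11 was held by 17 cap-gene and 4 other cells. Tril, a Toll-like receptor accessory protein, was found in 13 cap-gene cells and 0 other cells, at 72.0 CPM against the limit of 0.236, which is at least 304-fold higher. Cell 119 held 55.5% of its reads. Sema6d, a transmembrane semaphorin, had 73.8 against 2.99 CPM, Rtn1, a reticulon of the endoplasmic reticulum, 168 against 21.3, and Hs6st2, a heparan sulfate sulfotransferase, 49.8 against 2.76. With the 5 genes at 10 CPM or more Hs6st2 turned to -0.19. Adamts18, Tgfb1i1 and Igfbp2 were not called, with ratios of 0.89, 1.15 and 0.10. The list gave 9 of 12 also without the 8 cells that held fibroblast or Schwann cell markers, and 6 of 12 with groups set on thinned counts.

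**Figure D4:**
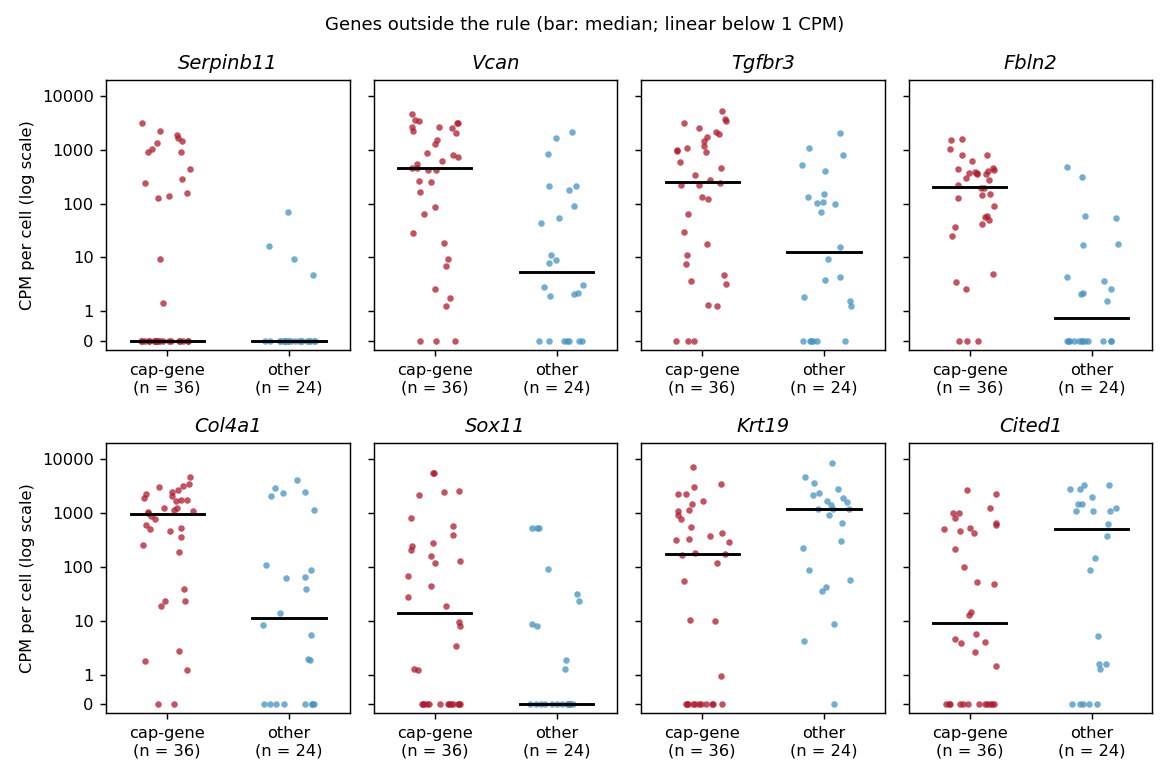
CPM per cell (log axis, linear below 1) of 8 genes outside the rule in the 36 cap-gene and 24 other cells, one point per cell with the median as a bar. Vcan, Tgfbr3, Fbln2 and Col4a1 have medians of 465, 256, 207 and 949 CPM in the cap-gene cells against 5.45, 12.5, 0.774 and 11.1, while Krt19 and Cited1 have lower medians there, and every gene overlaps between the groups.

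Of 15 basal markers 13 had ratios above 0, and 2 of them were called higher (13.3%, against 15.6% of all genes) and 0 lower. The median cell detected 10 of the 15 in the cap-gene group and 4 in the other group. The list's median was 0.69, against 0.20 over all genes, and lay below 0 under each alternative that kept cells with more basal or less luminal signal. Cdh3, P-cadherin, had 16.9 against 0.946 CPM, and Id4, a regulator of basal cells, 101 against 35.0, although Id4 turned to -0.17 among gated cells. Acta2, smooth muscle actin, ranged from 0 to 17485 CPM with a median of 1882 in the cap-gene cells and from 0 to 27582 with a median of 36.9 in the other cells. Its ratio was 1.03 with all cells and 0.90 without cell 117. Trp63, the basal transcription factor p63, stood at 116 against 124.5 CPM, Krt5 at 98.6 against 62.7 and Krt17 at 201 against 544, none of them called. The highest Acta2 cell was thus an other cell, while the middle of the range was higher in the cap-gene cells. Of 17 contractile genes 16 had ratios above 0, with a median of 0.80, and 2 were called (11.8%, against 15.6% of all genes). They were Oxtr, the oxytocin receptor (235 against 37.5 CPM), and Palld (63.3 against 1.26), a cytoskeletal protein. Among gated cells 9 of the 17 had ratios above 0, with a median of 0.08 against 0.61 over all genes. Among keratins and hemidesmosome genes, Krt6a and Cdh3 were higher of 11 tested. With the 5 genes at 10 CPM or more, Oxtr and Krt6a turned to -0.0154 and -2.85.

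All 10 luminal markers had ratios below 0, and 2 of them (20.0%) were called lower and 0 higher, with a median ratio of -1.02. Krt19 had a median of 175 CPM in the cap-gene cells, where 25 of 36 held it, and of 1198 in the other cells, where 23 of 24 did, and the group levels were 629 and 1422 CPM. Cldn3, a tight junction claudin, had 52.5 CPM in the cap-gene cells and 157.4 in the other cells. Krt8 and Krt18, whose counts may include reads of near-identical pseudogenes, had 525 against 1120.0 and 1332 against 2592 CPM, with ratios of -1.09 and -0.96, and neither was called. Epcam, a surface protein of all mammary epithelium, was at 749 and 923 CPM. Of the milk and progenitor genes, Wfdc18, Trf and Lalba were lower (3 of 9). Wfdc18, a whey acidic protein family member, stood at 78.0 against 3386 CPM, but only 10 of 24 other cells held it and cell 51 held 64.5% of it. The list's median was -3.23. Among gated cells only 5 of its genes were tested and 0 were called, with a median of 1.2004 against 0.61 over all genes. Of 9 mature luminal genes tested, Cited1, a transcriptional co-regulator, was lower, with median cells at 9.24 and 505 CPM. Pgr, the progesterone receptor, was higher at 89.5 against 20.3 CPM, and turned lower when the 5 genes had to reach 10 CPM. With 2 or more of the 5 genes set against 1, Lalba and Trf turned to 2.81 and 0.55. That setting left 7 other cells, and its median over all genes was 0.93.

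The same direction was seen in the signatures that the study took from sorted bulk populations. Of 136 bulk basal genes tested, 48 were higher and 3 lower, with a median of 1.14. Of 142 bulk luminal genes, 4 were higher and 25 lower, with a median of -0.98. The counts of the luminal signature changed in some alternatives. With 2 or more of the 5 genes set against 1, 28 of 135 were higher and 10 lower. With a gate of 5 basal genes 14 of 111 were higher and 9 lower, and with Krt14 above 40 RPKM 9 of 115 and 4. Among gated cells 11 of 108 were higher and 12 lower. The shares of all genes also moved. In the same order, 34.8%, 24.3%, 27.6% and 26.6% of all genes were higher and 2.41%, 3.61%, 3.46% and 3.80% lower. These lists overlap with the markers above.

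Transcription factors listed for basal cells were higher in 7 of 15 (46.7%) and lower in 0, with a median of 0.95. Sox11, an SRY-box factor of embryonic and progenitor tissues, ranged from 0 to 5596 CPM in the cap-gene cells with a median of 14.0, and from 0 to 533 with a median of 0 in the other cells, at group levels of 805 (793 to 817) and 68.4 CPM. Its ratio was 3.46 and stayed between 2.26 and 3.71 in all 15 alternatives. Zfhx4, a zinc finger homeobox protein, had 109 against 1.97 CPM, and Mef2c, a MADS-box factor, 54.6 against 1.97, although only 6 cap-gene cells held Mef2c and cell 117 held 52.1% of it. Egr2, an early growth response factor, had 144 against 38.9 CPM and Lmo1, a LIM-only protein, 24.6 against 1.02. Rai2 had 60.9 CPM in the cap-gene cells, 85.8% of it in cell 68, and turned to -3.04 with the 5 genes at 10 CPM or more, while Lmo1 turned to -0.28 with groups set on thinned counts. Nfib was broad, at 2825 against 1808 CPM, and not called. Without the 8 cells with fibroblast or Schwann cell markers, 4 of 15 were higher and 1 lower.

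Genes of the interstitial matrix were higher in 9 of 18 (50.0%) and lower in 0, with a median of 1.48. Col14a1, a fibril-associated collagen, was detected in 30 of 36 cap-gene cells, from 0 to 3143 CPM with a median of 36.6, and in 13 of 24 other cells, from 0 to 133 with a median of 1.496. Its levels were 254 (248 to 261) and 10.2 CPM (8.49 to 12.1). Fn1, fibronectin, had 219 against 22.2 CPM and turned to -0.73 with the 5 genes at 10 CPM or more. Fbn1, fibrillin, had 269 against 15.1, Col5a2 88.7 against 1.73 and Spon2 127 against 4.65. Adamts1, a matrix protease, had 385 against 104 CPM. Fbln2, a fibulin of elastic fibres and basement membranes that is outside the list, was present in 33 cap-gene cells with a median of 207 CPM and in 12 other cells with a median of 0.774. It had the ratio 3.05.

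Fibroblast markers differed beside this list. Of 9 fibroblast markers tested, 4 were higher, among them Col3a1 (469 against 0.630 CPM) and Dcn (391 against 59.7). With groups set on thinned counts 0 were higher and 1 lower, with a median of -2.19, and with the 5 genes at 10 CPM or more 0 were higher and 4 lower, with a median of -3.41 and Col3a1 at -5.31. The sum of the 10 fibroblast markers ran from 0 to 27633 CPM with a median of 20.7 in cap-gene cells, highest in cell 54, and from 0 to 9797 with a median of 8.84 in other cells, highest in cell 52. Lum and Pdgfra were at 0 in the other cells. Cell 54 held 9 of the 10 markers and 68.2% of the Col3a1 reads. Without the 6 cap-gene and 2 other cells that held 4 or more fibroblast or Schwann cell markers, 8 of 18 matrix genes were higher and the median was 1.33. With the 5 genes at 10 CPM or more, it was 4 of 17 and 0.29. The Schwann cell markers summed to at most 2759 CPM in a cap-gene cell and to 38635 in cell 52 of the other cells. Endothelial markers summed to at most 1946 and 1044 CPM, and pericyte markers to at most 408 and 1335. Of 8 immune markers, 6 were at 0 in every cap-gene cell and 7 in every other cell, with sums of at most 9.08 CPM.

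Basement membrane genes were higher in 6 of 19 (31.6%), with a median of 1.45. They included the collagens Col4a1 and Col18a1 and the laminin chains Lama1, Lama3, Lamb3 and Lamc1. Col4a1 was detected in 34 of 36 cap-gene cells, with a median of 949 CPM and a highest cell of 4702, and in 16 of 24 other cells, with a median of 11.1 and a highest cell of 4136. Col18a1 had median cells at 46.7 and 0 CPM, and Lama1 at 13.2 and 0. Among gated cells 0 of 17 genes of this list were called, where 26.6% of all genes were higher and 3.8% lower. The list's median was then 0.03, against 0.61 over all genes. What part basal marker number has in the difference was not tested.

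Signalling genes were mixed. In the TGF-β pathway 5 of 12 were higher: the ligand Tgfb2, the co-receptor Tgfbr3, the receptor Tgfbr2, the latency protein Ltbp4 and the signal transducer Smad2. Tgfbr3 had a median of 256 CPM in cap-gene cells and 12.5 in other cells, at levels of 1032 (1018 to 1045) and 259 CPM. The list's median was 1.29, and it was -0.08 with groups set on thinned counts and -0.20 with the 5 genes at 10 CPM or more. On thinned groups Tgfbr3 and Tgfb2 turned to -0.12 and -0.92, and at 10 CPM Tgfbr2 turned to -3.12. Of 7 BMP ligands and inhibitors Fstl1 and Bmp1 were higher. Fstl1, a secreted follistatin-like protein, had median cells at 1449 and 11.4 CPM, and 42.8% of its cap-gene reads lay in cell 54. It turned to -0.49 on thinned groups and to -0.42 at 10 CPM. Of 12 BMP receptors and targets, the receptor Acvr1 (39.0 against 2.21 CPM) and the target genes Id2 (220.5 against 70.5) and Msx2 were higher. Msx2 had 30.7 CPM in 6 cap-gene cells and no read in other cells, at least 130-fold higher, but turned to -1.09 with groups set on thinned counts and to -1.51 with the 5 genes at 10 CPM or more.

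In the WNT pathway, to which Wif1 belongs, few genes were called. They were the ligand Wnt6 of 3 tested, the receptor Lgr4 of 8, the inhibitor Sfrp4 of 7 and 0 of 3 targets, with list medians of 0.75, -0.07, -0.05 and 0.19. Wnt6 had 23.3 CPM in 8 cap-gene cells and no read in other cells, and cell 55 held 56.7% of it. It turned to -2.26 on thinned groups and to -1.49 at 10 CPM. Lgr4, an R-spondin receptor, was found in all 36 cap-gene cells with a median of 1342 CPM and in 22 of 24 other cells with a median of 209, at levels of 1922 and 915 CPM. Sfrp4 had 82.2% of its cap-gene reads in cell 54 and turned to -2.09 and -3.50 in the same order. Among ERBB ligands and receptors, to which Nrg1 belongs, Tgfa was the only gene of 9 called (13.8 against 3.31 CPM), and the list median was 0.12. Egfr stood at 91.8 against 84.2 CPM. Of 7 Notch genes 0 were called, and Jag1, a Notch ligand, was at 1361 and 937 CPM. Of 9 genes reported for basal stem cells Ndn was higher and Tspan8 lower, of 8 genes of mesenchymal transition Fn1 and Zeb1 were higher, and of 19 immediate early genes, which answer to handling among other stimuli, 2 were higher. Zeb1, a repressor of epithelial genes, had no read in the other cells and was at least 93.6-fold higher in the cap-gene cells, but turned to -1.07 with groups set on thinned counts and to -1.57 with the 5 genes at 10 CPM or more.

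Guidance genes differed in both directions: Neo1, Sema6d, Efnb2 and Reln were higher and Unc5b and Ntn1 lower, of 11 tested. Neo1, the neogenin receptor for netrins, had 83.3 CPM in the cap-gene cells against 2.13. Ntn1, netrin, had 1.80 against 23.2, and Unc5b, another netrin receptor, had 0.369 against 88.4. For Unc5b, 2 of the other cells held reads, and cell 3 held 93.1% of them. Efnb2, an ephrin ligand, was found in 13 cap-gene and 2 other cells.

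Cell cycle genes were higher in 8 of 21 (38.1%) and lower in 0, with a median of 1.43. Mki67, a marker of cycling cells, was detected at equal depth in 14 of 36 cap-gene cells (38.9%, 23.1 to 56.5) and in 2 of 24 other cells (8.33%, 1.03 to 27.0), at levels of 162 and 56.7 CPM. Ube2c, a ubiquitin-conjugating enzyme of mitosis, had 53.9 against 2.36 CPM, and Ccnd2, a D-type cyclin, 357 against 78.9. Top2a, a topoisomerase of dividing cells, was at 518 and 340.0 CPM and not called. Cdkn1c, a cyclin-dependent kinase inhibitor, was also higher (168 against 19.4 CPM), so the called genes were not all of proliferation. The median was 0.65 with the 5 genes at 10 CPM or more, and -0.15 with 2 or more genes set against 1.

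Beyond the lists, the 15 largest ratios among called genes that reached 100 CPM and were found in 50% or more of the higher group's cells at equal depth were 2.98 to 4.18. They were Pappa, Soat1, Col14a1, Snhg5, Timp2, Mocs2, Wdr45b, Slc35b1, Prkacb, Ddb1, Sox11, Cdc27, Sdad1, Fbln2 and Gpd2. Pappa, a metalloprotease that cleaves IGF-binding proteins, was in 25 of 36 cap-gene cells, with a median of 27.6 CPM and a highest of 2351, and in 6 of 24 other cells, with a highest of 137. Timp2, an inhibitor of matrix metalloproteinases, had median cells at 32.3 and 0 CPM and levels of 155.5 and 6.07. The largest in the other direction were -3.07 to -2.04. They were Bsg, Gde1, Timm44, Chd9, Elovl1, Tmbim4, Rnf20, Immt, Gcc2, Fam32a, Zfp131, Plet1, Cfap20 and Denr. Bsg, basigin, a membrane glycoprotein, was in 25 of 36 cap-gene cells, with a median of 7.98 CPM, and in 20 of 24 other cells, with a median of 54.2, at levels of 22.7 (20.7 to 24.8) and 227 CPM. Elovl1, a fatty acid elongase, had 90.8 against 608 CPM. Some of these levels rest on few cells: cell 49 held 62.8% of the Cdc27 reads and cell 125 held 61.7% of the Gde1 reads of its group. Of 71 higher and 23 lower genes followed through the alternatives, 46 and 15 kept their sign in each of them that could be computed.

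**Figure D5:**
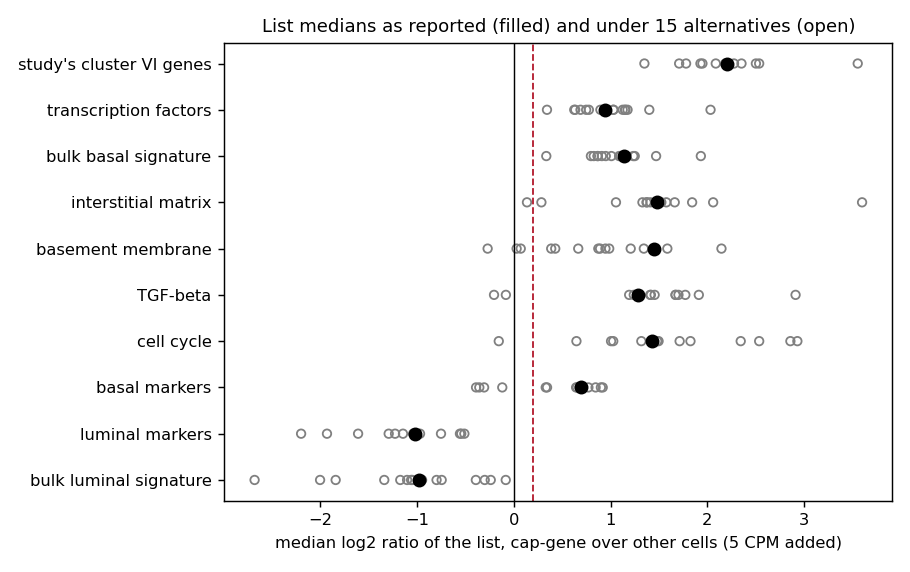
Median log2 ratio of cap-gene over other cells (x axis, 5 CPM added) for 10 gene lists, as reported (filled circles) and under 15 alternative settings (open circles), with the median of all genes, 0.20, as a dashed line. The study's cluster VI genes, the transcription factors and the bulk basal signature stay above 0 and the luminal lists below 0. The basement membrane, TGF-β, cell cycle and basal marker lists cross 0. The dashed line holds for the reported groups only. With a gate of 5 basal genes the median of all genes is 0.47, above the transcription factors and the bulk basal signature, both at 0.34.

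Among cells past the basal gate, 25 cap-gene cells stood against 8 other cells. Of 8365 genes, 2227 were higher (26.6%) and 318 lower (3.8%), and the median of all genes was 0.61, so the whole distribution was shifted upward. Median depth was 558118 and 498766 reads, and 2953 and 2660.5 genes were detected at equal depth. The part of this in the shift was not tested. Under the same limits of 100 CPM and 50% of cells, the 15 largest ratios ranged from 5.05 (Zfp704) to 6.20 (Cul5) and, in the other direction, from -3.68 (Prom2) to -7.22 (Mr1).

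Markers of other cell types differed here too: 4 of 5 fibroblast markers (median 4.14) and 4 of 5 endothelial markers (median 3.25) were higher, and their part in what follows was not tested. Without the 5 cap-gene and 1 other cells that held 4 or more fibroblast or Schwann cell markers, 0 of 2 fibroblast and 1 of 4 endothelial markers were higher. Of the study's cluster VI genes 6 of 12 were higher in the gated cap-gene cells, with a median of 1.35, and without those cells 6 of 12 with 1.73. Vcan had 1081 CPM against 64.8, and its highest other cell was at 212. Rtn1 had 240 against 0.838 and Zfhx4 157.1 against 0.280 CPM. Sox11 stood at 1071 against 219. The basal markers, by which the gate chose these cells, had a median of -0.39. Acta2 stood at 5283 against 6418 CPM and Trp63 at 139.7 against 223, neither called. Col4a1 (1527 against 748 CPM) was not called either. Krt19 was the only called luminal gene of 9, at 521 against 1658 CPM. Of 11 ERBB genes the receptors Erbb2 and Erbb3 and the ligand Nrg4 were lower and Tgfa higher, with Erbb2 at 37.4 against 298 CPM. Without cells that held more than 5 luminal genes, which left 11 against 3, 2 of 8 were higher and 0 lower and Erbb2 turned to 3.39. Cell cycle genes were higher in 13 of 20 with a median of 2.93, and without those cells in 11 of 20: Mki67 had 165 CPM and was at 0 in all 8 other cells, and Top2a had 427 against 7.55 CPM. Moxd1 and Nrg1, of the rule, were closer between the groups here, at 715 against 489 and 1475 against 1020 CPM.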

How the data were processed

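Single-cell RNA-seq counts of 346 cells were used. Per the labels, the authors aligned reads to mm10 with Subread 1.4.6 and deposited raw counts per Entrez gene from featureCounts. Gene names and coordinates were taken from RefSeq for GRCm38.p6 (25275 of 27179 genes matched). Genes without a symbol, 15 mitochondrial genes and 124 ribosomal protein genes (pseudogenes included) were left out, and 25136 remained. Cells needed 100000 reads and 1500 genes. No 2 cells held identical counts, and no doublet caller was run, and per its methods the study viewed captured cells under a microscope. Cells held 209 to 1317107 reads on all genes. Because no replicate exists, calls are folds and not tests. The 5 genes and Krt14 were left out of the counts. The code was tested on simulated data.

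The members, the lists and the rule for naming genes were chosen with earlier results of these data known. Genes named were the 15 largest ratios each way, up to 6 called genes of each list, and chosen markers. A gene that the rule also named is not reported here. Alternatives changed the groups, the gate, depth, weighting, the added CPM and the floor. Those on 10 CPM detection, on fibroblast and Schwann cell markers, on the top cell and within gated cells were chosen after seeing the data. RPKM was computed from the deposited gene lengths. Python 3.11.15 with numpy 2.4.6, pandas 2.3.3 and scipy 1.17.1 was used.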

Additional observations from a re-analysis of the deposited data

Results flagged for a closer look

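Cells outside the comparison also held the 5 genes. Of 59 pubertal cells past the coverage filter without a Krt14 read, 9 detected 3 or more of them (15.3%, exact 95% interval 7.22 to 27.0). They are given because no comparison above used them, and the count rests on the genes of the rule. In 5 of the 9, cells 17, 24, 40, 46 and 72, Snai2, Wif1 and Bmp7 were at most at 4.81 CPM and 6 to 8 luminal genes were found. Cell 37 held 501 CPM of Snai2, 1281 of Moxd1 and 3746 of Nrg1 with 1 luminal gene, and cell 135 held 637 CPM of Snai2 with 9 basal and 7 luminal genes. Cell 134 had 1499 CPM of Moxd1 and 17.3 of Wif1, and cell 78 had 58.1 CPM of Bmp7. Of 17 pubertal cells below the coverage filter, 4 detected 3 or more of the 5 genes (23.5%, 6.81 to 49.9), at 23024 to 92361 reads, and 2 of the 4 held Krt14 reads.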

How the results depend on the processing

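No paired analysis was possible because the cell numbers in the labels only count cells and no label ties a cell to a mouse or chip. A count is taken as kept within 1.5-fold, and a log2 value when it moved by less than the log2 of that. Of the 32 recounts of called genes 13 moved by more. Of 1362 recomputed ratios of named genes 57 changed sign after being called and 427 others moved. Of 448 list medians, 20 that had been at least 1 in size changed sign, and 129 others moved. Smaller medians that changed sign are not in the 20, and count as moved only past the limit above. The basal markers are such a list, at 0.69 as reported and -0.39 among gated cells, which were chosen by these same markers. In the 15 alternatives run on the main comparison, the medians of the luminal markers and the bulk luminal signature stayed below 0. Those of the cluster VI genes, the transcription factors, the interstitial matrix list and the bulk basal signature stayed above 0. In the alternatives run within gated cells, these lists kept their sign except the bulk luminal signature, which reached 0.0191. The median of all genes also changed with the setting. With a gate of 5 basal genes it was 0.47, above the transcription factors and the bulk basal signature, both at 0.34. Without cells that held more than 5 luminal genes it was 0.90, against 0.64 and 0.87 for these lists. The cause of these changes was not tested. With cells grouped on counts thinned to 100000 reads, there were 21 cap-gene cells and 715 genes lower. The medians were -2.19 for the fibroblast markers, -1.85 for the BMP ligands and inhibitors, -0.0807 for the TGF-β list, 0.43 for the basement membrane list and 0.14 for the interstitial matrix list. For single genes the values were -0.57 for Snhg5, -0.53 for Slc35b1, 0.0837 for Fam32a, -0.28 for Lmo1, -0.49 for Fstl1, -1.09 for Msx2, -1.64 for Col3a1, -0.0277 for Dpt, -2.68 for Col1a2, -0.0606 for Dcn, -0.58 for Krt6a, -0.6488 for Pgr, -1.07 for Zeb1, -0.92 for Tgfb2, -0.12 for Tgfbr3, -2.09 for Sfrp4 and -2.26 for Wnt6. With cells detecting 2 or more of the 5 genes set against those detecting 1, there were 7 other cells, 3011 genes higher and 208 genes lower. The medians were 3.55 for the cluster VI genes, 1.74 for the luminal progenitor markers, 4.90 for the Schwann cell markers, 2.03 for the transcription factors, 2.15 for the basement membrane list, 3.5972 for the interstitial matrix list, -0.15 for the cell cycle list, 1.93 for the bulk basal signature and -0.0821 for the bulk luminal signature. Named genes then stood at 0.74 for Timm44, 1.38 for Plet1, -0.22 for Ccnb1, 2.81 for Lalba and 0.55 for Trf. With 4 or more genes set against 2 or fewer, there were 20 cap-gene cells and 802 genes lower. The medians were -2.20 for the luminal markers, -0.0758 for the fibroblast markers, 0.67 for the basement membrane list and -1.9992 for the bulk luminal signature. With Krt14 above 40 RPKM, there were 22 cap-gene cells, 7 other cells, 2273 genes higher and 285 genes lower. The medians were -0.31 for the basal markers, 1.25 for the luminal progenitor markers, 2.64 for the Schwann cell markers, -0.27 for the basement membrane list, 2.86 for the cell cycle list and -0.39 for the bulk luminal signature. Ratios of single genes were 0.16 for Plet1, -0.0023 for Id4, -0.21 for Lama3, -0.0526 for Reln and -0.58 for Tgfbr2. Among the gated cells, there were 8 other cells and 2227 genes higher. The medians were 1.35 for the cluster VI genes, -0.39 for the basal markers, 1.2004 for the luminal progenitor markers, 3.31 for the Schwann cell markers, 0.0303 for the basement membrane list, 2.93 for the cell cycle list and -0.30 for the bulk luminal signature. For single genes the values were 0.37 for Fam32a, 0.63 for Plet1, -0.17 for Id4 and -0.43 for Tgfbr2. With a gate of 5 basal genes, there were 11 other cells. The medians were -0.36 for the basal markers, 0.75 for the luminal progenitor markers, 3.01 for the Schwann cell markers, 0.34 for the transcription factors, 0.0727 for the basement membrane list, 2.34 for the cell cycle list, 0.34 for the bulk basal signature and -0.24 for the bulk luminal signature. Plet1 then stood at 0.59. Without cells that held more than 5 luminal genes, there were 14 cap-gene cells, 6 other cells and 280 genes lower. The medians were -0.12 for the basal markers, -1.93 for the luminal markers, 1.97 for the luminal progenitor markers, -1.22 for the fibroblast markers, 2.91 for the TGF-β list, 0.39 for the basement membrane list, 2.53 for the cell cycle list and -2.68 for the bulk luminal signature. Ratios of single genes were 1.33 for Rnf20, 2.25 for Fam32a, 0.83 for Zfp131, 1.28 for Denr, -1.22 for Dcn, -0.35 for Reln and 3.89 for Trf. With cells of 300000 to 900000 reads only, the single-gene ratio was -0.44 for Id4. With each cell weighted equally, the median was 1.91 for the TGF-β list. With a floor of 50 CPM, there were 763 genes higher. With the 5 genes called detected at 10 CPM or more, there were 20 cap-gene cells, 40 other cells, 654 genes higher and 1271 genes lower. The medians were -3.41 for the fibroblast markers, -0.51 for the BMP ligands and inhibitors, -0.20 for the TGF-β list, 0.29 for the interstitial matrix list, 0.65 for the cell cycle list and -1.84 for the bulk luminal signature. For single genes the values were -3.04 for Rai2, -0.42 for Fstl1, -1.51 for Msx2, -0.0154 for Oxtr, -5.31 for Col3a1, -0.20 for Dpt, -3.46 for Col1a2, -0.78 for Dcn, -2.85 for Krt6a, -0.73 for Fn1, -4.02 for Pgr, -1.57 for Zeb1, -0.19 for Hs6st2, -0.18 for Tgfb2, -3.12 for Tgfbr2, -3.50 for Sfrp4 and -1.49 for Wnt6. Without the cells that held 4 or more fibroblast or Schwann cell markers, the median was 0.26 for the Schwann cell markers. With the fold needed over all cells only, there were 2798 genes higher and 1973 genes lower. Among gated cells, with a floor of 50 CPM, there were 1222 genes higher. The medians were -0.25 for the luminal progenitor markers and -0.0784 for the reported stem cell genes. Among gated cells, without cells that held more than 5 luminal genes, there were 203 genes lower. The median was 0.30 for the ERBB list. Named genes then stood at 1.73 for Atp9b and 3.39 for Erbb2. Among gated cells, with the fold needed over all cells only, there were 3755 genes higher and 1970 genes lower. Depth limits absence: a count of 0 in the 24 other cells, taken as up to 3 reads, allows 0.236 CPM.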

Other observations

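Pubertal Krt14-positive cells with little Krt14 fell into unlike kinds by their other genes. The cap-gene cells 119, 49, 131 and 28 held 4, 3, 5 and 2 Krt14 reads with 3 or fewer of 10 luminal genes, and Snai2 stood at 1333, 795, 204 and 189 CPM in them. In 9 other cap-gene cells with 10 Krt14 reads or fewer, more than 5 luminal genes were found.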
